A study of Homo sapiens with 3 samples.

Results

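The genes described here encode the SR proteins, the heterogeneous nuclear ribonucleoproteins (hnRNPs) and the factors that work beside them when splice sites are chosen. They were taken by name: *SRSF1* to *SRSF12*, *TRA2A*, *TRA2B*, every gene whose symbol begins with *HNRNP*, *PTBP1* to *PTBP3*, *SF1*, *U2AF1*, *U2AF2*, the subunits of SF3A and SF3B, *RBM39*, *CLK1* to *CLK4* and *ELAVL1*. No expression value entered that choice. Of 61 protein-coding symbols that the rule covers, 57 had a probe on the array, out of 18216 protein-coding genes with a probe, and they were read by 92 of 58201 probes. *HNRNPCL2*, *HNRNPCL3*, *HNRNPCL4* and *HNRNPA1L3* had none. The 57 genes fell into 25 hnRNPs, with the polypyrimidine tract binding (PTB) proteins counted among them, 14 SR proteins and SR-like TRA2 proteins, 13 factors of the branch point and 3′ splice site, 4 CLK kinases and *ELAVL1*.

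The study looked for genes that are lower after *miR-139-3p*, a strand of pre-*miR-139*, is transfected into lung adenocarcinoma cells, and an array of the other strand, *miR-139-5p*, belongs to the same series. A549, an established human line of that tumor, was transfected with Lipofectamin RNAiMAX. One culture received the reagent only (mock), another *miR-139-5p* and the last *miR-139-3p*, and the methods state a dose of 10 nM for every miRNA precursor. The mock cells received no small RNA, so a response to any transfected RNA and a response to the strand itself cannot be told apart. The time between transfection and harvest of the RNA for the arrays was not given in the sources used here.

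Total RNA of each culture was hybridised to 1 array of 1 colour, so every condition had 1 array, called here mock, 5p (*miR-139-5p*) and 3p (*miR-139-3p*), no value has a replicate, and no test or p-value is given. Values are normalised signals, the processed signal of a probe divided by the 75th percentile of its array over spots other than controls. A signal of 1 is that percentile, and signals of different probes do not share a scale. For a gene with several probes, the signal given is the mean, on the log2 scale, over its probes with a value on every array. A gene was called lower or higher where its log2 fold change against mock, averaged over its probes, lay below -0.5 or above 0.5. The error that the scanner software gives to a spot came to between 0.204 and 0.260 on the log2 scale of a fold change for the probes of these genes. The spread between probes of a gene was the other measure of error. Over all genes with several probes its median SD was 0.27 on 3p and 0.15 on 5p. Slide 1 held the mock and 5p arrays and slide 2 the 3p array, so slide and *miR-139-3p* cannot be told apart. All 6 epithelial marker genes were well above background on every array. Of the 6 alveolar markers, *SFTPC*, *NAPSA* and *ABCA3* were too, and *SFTPB*, *SFTPA1* and *NKX2-1* were not, on any array. Of 7 markers of blood, stromal and endothelial cells, between 2 and 4 were. Each array read RNA of a whole culture, so less RNA in every cell and fewer cells that make it cannot be told apart.

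Splicing begins when the U1 and U2 particles find the ends of an intron, and the proteins described here decide how readily they do so. SR proteins bind exonic sequences through an RNA recognition motif and recruit the particles through a tail rich in arginine and serine. Many hnRNPs bind the same transcripts and oppose them, and the balance between both groups sets which exons are kept. SF1, the U2AF pair, SF3A and SF3B recognise the branch point and the 3′ splice site, and CLK kinases phosphorylate the tails of SR proteins and so control where they are in the nucleus. In lung adenocarcinoma, as in other tumors, several of these genes are often highly expressed. Many of them also regulate themselves through poison exons, which send their own transcripts into decay.

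The 2 RNAs put into the cells are the opposite strands of a single hairpin, and they are shown because they are what was added to the cultures. In RefSeq, on GRCh38.p14, both lie on the minus strand of chromosome 11, *miR-139-5p* at chr11:72615102-72615124 and *miR-139-3p* at chr11:72615066-72615088. They are written 5′ to 3′ with the seed, bases 2 to 8, in capitals.

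hsa-miR-139-5p: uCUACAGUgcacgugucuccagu

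hsa-miR-139-3p: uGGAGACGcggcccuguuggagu

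Both are 23 bases long, and their seeds, CUACAGU and GGAGACG, are different. Sites for these seeds in the transcripts were not analysed here.

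With *miR-139-3p*, 20 of the 56 genes with a value were lower than mock and 2 were higher. The share that was lower, 35.7%, lay close to that of all protein-coding genes with a value (30.5%) and of the 25% of those genes with the brightest signal (35.1%). The splicing factors belong with bright genes: the median gene sat at percentile 80.1 of signal, and 33 of 56 were in that brightest 25%. The share that was higher, 3.57%, stood against 23% of all protein-coding genes and 10.4% of the bright ones. The median log2 fold change of the splicing factors was -0.28, beside -0.13 for all protein-coding genes with a value and -0.28 for bright genes. Below a threshold of -1 lay 2 genes, where 12.9% of all protein-coding genes did, and above 1 lay 1 gene, where 10.3% did. Above mock by any amount were 17 of 56, beside 43.6% of all protein-coding genes and 30.8% of bright ones. Between ways of scaling that count ran from 7 to 22, and the share of all protein-coding genes from 33.8% to 52.5%. The values of the splicing factors also covered a narrower range, with an SD of 0.54 between genes beside 0.72 for bright genes and 0.89 for all. Of the 56 genes, 12 lay within 0.1 of a threshold, and the count of lower genes ran from 11 to 27 between ways of scaling the arrays.

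With *miR-139-5p*, 2 genes were lower (3.57%, against 12.2% of all protein-coding genes and 6.5% of bright ones) and 4 were higher (7.14%, against 10.6% and 6.28%). The values sat slightly to one side. At a threshold of 1, *HNRNPF* alone was lower (2.36% of all protein-coding genes were) and none was higher (1.85% were). Of 56 genes, 40 were above mock by any amount, where 49.3% of all protein-coding genes and 49.7% of bright ones were. The median was 0.12, and it was 0.00 for bright genes. The comparisons share the mock array, so a low or high mock value moves both.

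**Figure D1:**
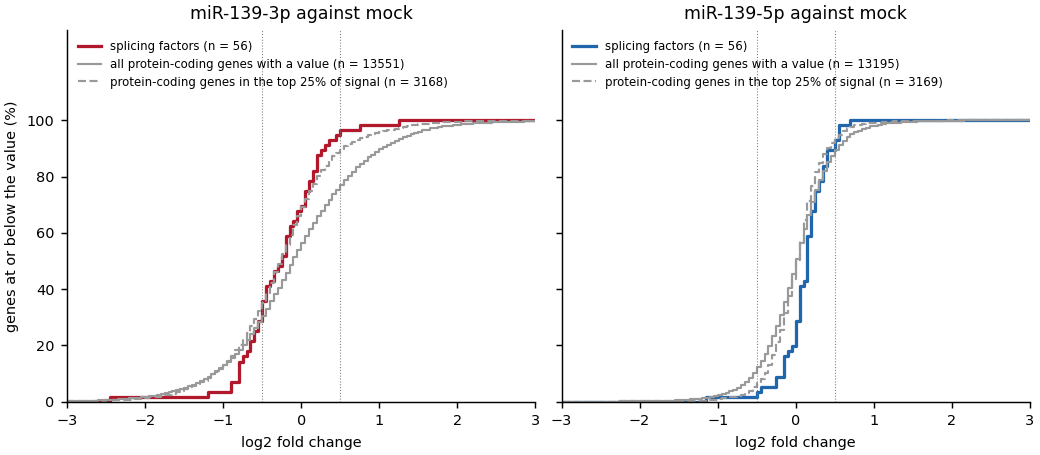
Cumulative share of genes (y axis, %) against the log2 fold change (x axis) with *miR-139-3p* (left) and *miR-139-5p* (right), for 56 splicing factors (coloured line), all protein-coding genes with a value (solid grey) and the 25% of genes with the brightest signal (dashed grey). Dotted lines mark -0.5 and 0.5. On the left 35.7% of the splicing factors lie below -0.5 and 3.57% above 0.5, and on the right the coloured line runs to the right of both grey lines around 0.

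Across the 3 arrays, 37 of 56 genes had their lowest signal on the *miR-139-3p* array, beside 51% of protein-coding genes well above background on every array. Their highest signal was on the *miR-139-5p* array for 33 genes, beside 34.2% of protein-coding genes. Both held for 23 genes, beside 25.9% of protein-coding genes. The same shares of bright genes were not computed.

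**Figure D2:**
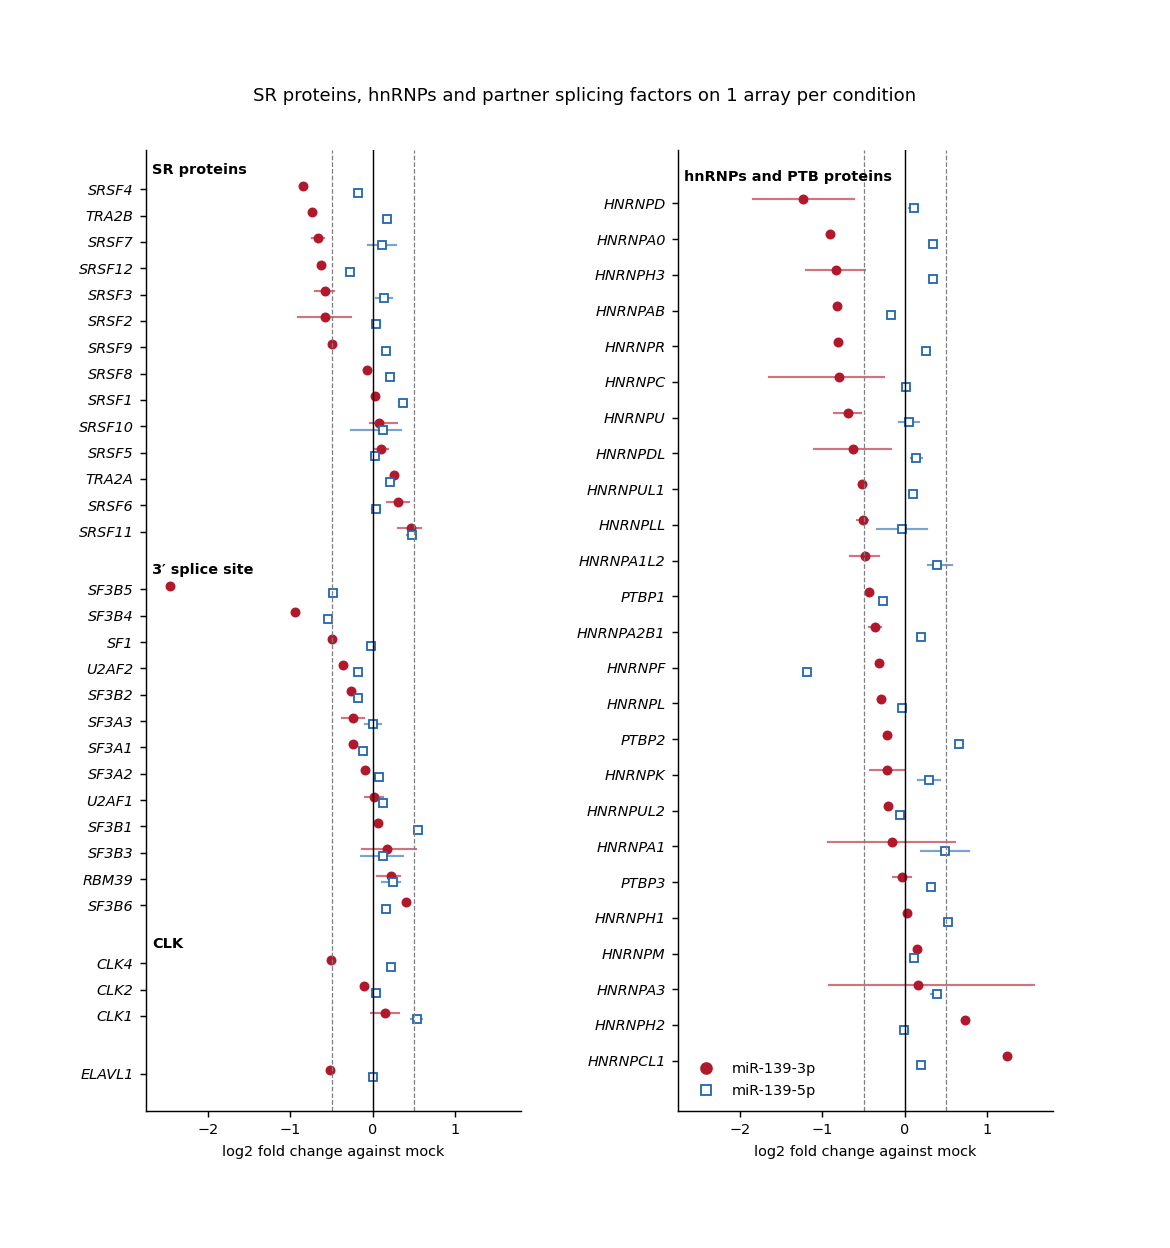
Log2 fold change against mock (x axis) of each splicing factor with *miR-139-3p* (filled circles) and *miR-139-5p* (open squares), by family and in the order of the *miR-139-3p* values. Horizontal lines run from the lowest to the highest probe of genes with several probes, and dashed lines mark -0.5 and 0.5. *SF3B5* lies farthest to the left at -2.46, and the open squares of most hnRNPs lie to the right of 0.

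Among the SR proteins, 6 of 14 were lower with *miR-139-3p* (42.9%, where 30.5% of all protein-coding genes and 35.1% of bright ones were) and none was higher, with a median of -0.28. *SRSF4*, an SR protein with a long arginine and serine tail that can promote or silence exons, had a normalised signal of 14.7 on mock, 12.995 on 5p and 8.20 on 3p. Its log2 fold change was -0.84 on 3p, or 55.7% of mock, and -0.18 on 5p. Both values rest on a single probe. The 3p array was the low one, and mock and 5p differed by less than the scanner error.

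*TRA2B*, which binds GAA-rich exonic enhancers, was also lowest on the 3p array. Its normalised signals were 10.3, 11.7 and 6.20 on the mock, 5p and 3p arrays. Both of its probes gave almost the same log2 fold change with *miR-139-3p*, -0.74 and -0.73, for a gene value of -0.73. With *miR-139-5p* they gave 0.16 and 0.19. Of all splicing factors with several probes, *TRA2B* was the one whose probes differed least with *miR-139-3p*.

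*SRSF7* and *SRSF3*, close relatives that also help export mRNA, lay near each other. *SRSF7* read 6.19, 6.69 and 3.91 on the mock, 5p and 3p arrays, a log2 fold change of -0.66 on 3p and 0.11 on 5p. *SRSF3* read 37.4, 41.3 and 24.98, which gave -0.58 and 0.14. In both genes each probe was below mock with *miR-139-3p*, from -0.73 to -0.60 for *SRSF7* and from -0.70 to -0.47 for *SRSF3*. *SRSF3* has 5 named pseudogenes in the annotation, and its signal may hold RNA of such copies.

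*SRSF2*, a nuclear SR protein that stays in speckles, read 22.4, 23.02 and 14.9 on the mock, 5p and 3p arrays. Its log2 fold change of -0.58 on 3p joined a bright probe at -0.90 and a dimmer one at -0.26. *SRSF12*, a relative of *SRSF10* with low expression in most tissues, read 0.236, 0.196 and 0.153, which gave -0.63. This was the dimmest of the splicing factors, at percentile 9.42 of signal, and its value was -0.05 under normexp background correction and -1.02 under quantile normalization. *SRSF9*, at -0.49 with *miR-139-3p*, stopped just short of the threshold.

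The rest of the SR proteins did not follow. *SRSF1*, the factor first purified for its effect on splice site choice, had a log2 fold change of 0.03 on 3p, *SRSF5* of 0.11, *SRSF8* of -0.07 and *SRSF10* of 0.08. *SRSF6*, which promotes or blocks exons by position, read 3.38, 3.47 and 4.18 on the mock, 5p and 3p arrays, and its log2 fold change was 0.31 with *miR-139-3p*. One of its probes was designed on a noncoding transcript of the gene and gave 0.17, and the other gave 0.44. *TRA2A*, the paralog of *TRA2B*, read 1.34, 1.54 and 1.59 and had 0.25.

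*SRSF11* stood highest among the SR proteins on both arrays. It read 6.08 on mock, 8.47 on 5p and 8.38 on 3p. Its log2 fold changes were 0.48 and 0.46, below the threshold with either strand, and each of its 3 probes was above mock on both arrays, from 0.31 to 0.58 with *miR-139-3p* and from 0.41 to 0.51 with *miR-139-5p*. Here the mock array was the low one.

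With *miR-139-5p* no SR protein passed the threshold in either direction, where 12.2% of all protein-coding genes were lower and 10.6% higher. Of 14, 12 were above mock, beside 49.3% of all protein-coding genes, and the median over all 14 was 0.13. *SRSF12* at -0.27 and *SRSF4* were the exceptions.

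Paralogs of the SR proteins had unequal values with *miR-139-3p*. *SRSF4* lay 1.15 below *SRSF6* and 0.95 below *SRSF5*, its nearest relatives, on the log2 fold change scale. *TRA2B* lay 0.99 below *TRA2A*. *SRSF2* lay 0.51 below *SRSF8*, and *SRSF1* lay 0.52 above *SRSF9*. *SRSF3* and *SRSF7* differed by 0.08, within the scanner error. With *miR-139-5p* none of these pairs differed by more than 0.22, apart from *SRSF10* and *SRSF12*, which differed by 0.40.

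Of the 25 hnRNPs and PTB proteins, 10 were lower with *miR-139-3p* (40%, where 30.5% of all protein-coding genes and 35.1% of bright ones were) and 2 were higher (8%, where 23% and 10.4% were). Their median was -0.36. Their lowest value was that of *HNRNPD*, known as AUF1, which binds AU-rich elements and promotes decay of the mRNAs that carry them. Its normalised signal was 12.2 on mock, 13.1 on 5p and 5.17 on 3p. The log2 fold change on 3p was -1.23, or 42.6% of mock, and it was 0.11 with *miR-139-5p*. Both probes were below the threshold with *miR-139-3p* but by unequal amounts, the bright one at -0.62 and the dim one at -1.84.

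Its relatives were lower too. *HNRNPAB*, a paralog that binds RNA and DNA, read 9.50, 8.49 and 5.36 on the mock, 5p and 3p arrays, a log2 fold change of -0.83 on 3p and -0.16 on 5p. *HNRNPDL* read 6.19, 6.83 and 4.0, and its probes gave -1.10 and -0.16, for a gene value of -0.63. *HNRNPDL* has 5 named pseudogenes.

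*HNRNPA0*, an A and B type hnRNP that also binds AU-rich elements, read 2.70, 3.42 and 1.45 on the mock, 5p and 3p arrays. The log2 fold change was -0.90 on 3p and 0.34 on 5p, so the arrays with the miRNAs lay on either side of mock. *HNRNPR*, an hnRNP with an acidic domain that takes part in mRNA transport and processing, read 12.3, 14.8 and 7.03. Its values were -0.81 and 0.26. *HNRNPU*, which binds RNA and nuclear scaffold DNA, read 7.90, 8.17 and 4.88, and both of its probes were below the threshold with *miR-139-3p*, at -0.53 and -0.86.

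In the family that binds G-runs, *HNRNPF* and *HNRNPH1* to *HNRNPH3*, no pattern was shared. *HNRNPH3* read 8.61, 10.9 and 4.81 on the mock, 5p and 3p arrays, with a log2 fold change of -0.84 on 3p from probes at -1.19 and -0.49. *HNRNPH2* read 4.52, 4.49 and 7.52, which gave 0.73, or 166% of mock. *HNRNPH1* was level with mock with *miR-139-3p*, at 0.03.

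*HNRNPF* was the one splicing factor past 1 with *miR-139-5p*. It read 9.88 on mock, 4.32 on 5p and 7.94 on 3p. Its log2 fold change was -1.19 on 5p, or 43.7% of mock, and -0.32 on 3p. *HNRNPH1* lay on the other side of mock on the same array, at 45.8 on mock and 66.2 with *miR-139-5p*, a log2 fold change of 0.53. *HNRNPF* lay 1.72 below *HNRNPH1* with *miR-139-5p* and 0.34 below it with *miR-139-3p*. Each of these genes but *HNRNPH3* rests on 1 probe.

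*HNRNPC* binds uridine tracts and packages pre-mRNA. It read 19.1, 19.3 and 10.99 on the mock, 5p and 3p arrays, and its log2 fold change was -0.80 with *miR-139-3p*. Its 3 probes gave -0.25, -0.49 and -1.65, so only the dimmest passed the threshold, and with the brightest probe alone the value was -0.49. It has 9 named pseudogenes. The related *HNRNPCL1* read 0.608, 0.695 and 1.43, a log2 fold change of 1.24 on 3p, or 235% of mock, and 0.19 on 5p. This was the highest value with *miR-139-3p* among the 56 genes, with marked outlier spots left out. As *HNRNPCL1* is a close copy of *HNRNPC*, its probe may read RNA of other copies, and the value is uncertain.

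*HNRNPA1* and *HNRNPA3*, which shuttle between nucleus and cytoplasm and repress exons, had probes on both sides of both thresholds with *miR-139-3p*. For *HNRNPA1*, the bright probe read 163 on mock, 187 on 5p and 85.8 on 3p, a log2 fold change of -0.93. The dim probe read 2.49, 4.28 and 3.81, which gave 0.61. The gene value of -0.16 therefore describes neither of them. *HNRNPA1* has 75 named pseudogenes in the annotation.

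For *HNRNPA3*, which has 17 named pseudogenes, 4 probes gave -0.92, -0.58, 0.57 and 1.57 with *miR-139-3p*, around a mean of 0.16. The brightest of them read 63.0, 85.0 and 42.1 on the mock, 5p and 3p arrays. With *miR-139-5p* the same probes lay together, from 0.32 to 0.43. The spread with *miR-139-3p*, an SD of 1.14 between probes, was the largest of all splicing factors. *HNRNPA1L2*, a copy of *HNRNPA1* annotated as protein-coding, gave -0.49 on 3p and 0.39 on 5p.

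**Figure D3:**
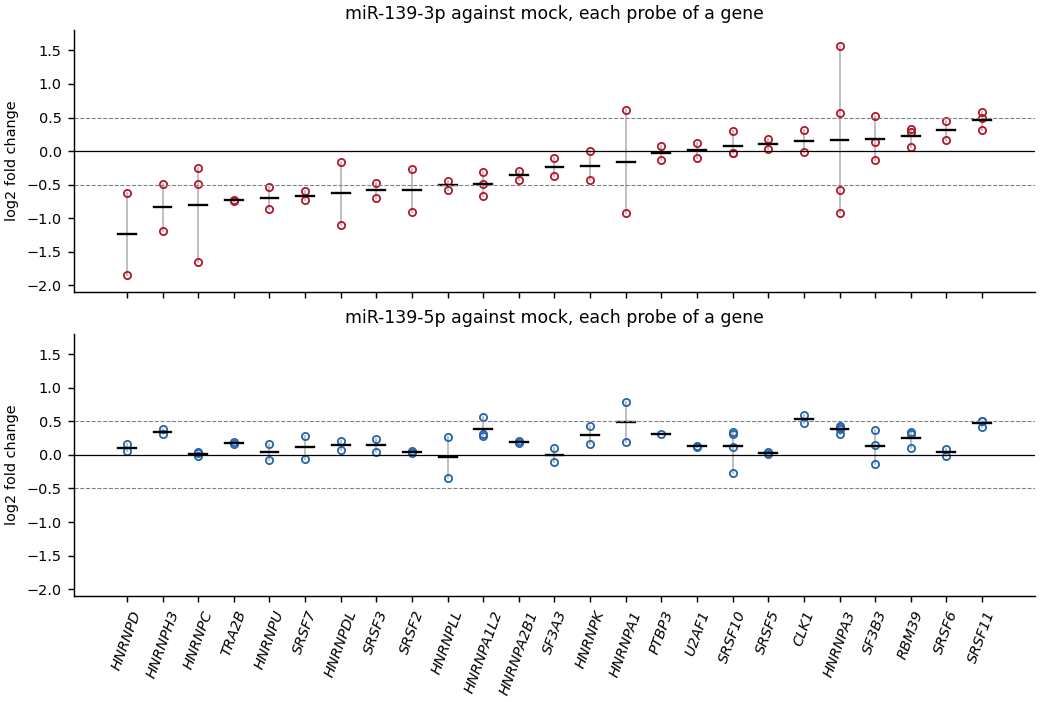
Log2 fold change (y axis) of each probe (open circles) of the 25 splicing factors with several probes, with *miR-139-3p* (top) and *miR-139-5p* (bottom). Black bars are the gene means, grey lines join the lowest and highest probe, and dashed lines mark -0.5 and 0.5. *HNRNPA1* and *HNRNPA3* reach past both dashed lines in the top panel, while the probes of *TRA2B* lie on top of each other.

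The median SD between probes over these 25 genes was 0.19 with *miR-139-3p*. With *miR-139-5p*, where 24 genes kept several probes, it was 0.09. Of the 10 genes with several probes that were lower with *miR-139-3p*, all 10 had every probe below mock, and 4 had every probe below -0.5: *TRA2B*, *SRSF7*, *HNRNPU* and *HNRNPD*. Probes lay on both sides of mock for 7 genes with *miR-139-3p* and for 8 with *miR-139-5p*.

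Most of the remaining hnRNPs were slightly below mock with *miR-139-3p*. *HNRNPUL1* at -0.52 and *HNRNPLL*, a regulator of exons in lymphocytes, at -0.51 passed the threshold by a margin far smaller than the scanner error. *HNRNPA2B1*, *HNRNPL*, *HNRNPK* and *HNRNPUL2* had log2 fold changes between -0.36 and -0.20. *HNRNPM*, which binds GU-rich sequences, read 15.3, 16.6 and 17.03 on the mock, 5p and 3p arrays, which gave 0.15.

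The PTB proteins repress exons next to pyrimidine tracts, and *PTBP2* takes the place of *PTBP1* in developing neurons. *PTBP2* read 1.5 on mock, 2.38 on 5p and 1.29 on 3p. Its log2 fold change on 5p was 0.66, the highest of all splicing factors, and with *miR-139-3p* it was -0.22. *PTBP1* read 1.79, 1.49 and 1.32, which gave -0.26 and -0.44. With *miR-139-5p*, *PTBP2* thus lay above mock and *PTBP1* below it, 0.92 apart. *PTBP3* was at 0.31 with *miR-139-5p*, by 1 of its 2 probes, and at -0.03 with *miR-139-3p*.

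Of the 13 factors of the branch point and 3′ splice site, 2 were lower with *miR-139-3p*, both subunits of SF3B. That is 15.4%, where 30.5% of all protein-coding genes and 35.1% of bright ones were lower. *SF3B5*, a small subunit of the complex that clamps U2 to the branch point, had a normalised signal of 68.3 on mock, 48.8 on 5p and 12.4 on 3p. Its log2 fold change was -2.46 on 3p, or 18.2% of mock, and -0.49 on 5p, or 71.4% of mock. No other splicing factor came within 1 of that value. The gene lay 2.30 below the median of the other SF3A and SF3B subunits taken by name.

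*SF3B4*, which touches the pre-mRNA upstream of the branch point, came next. It read 0.880, 0.605 and 0.456 on the mock, 5p and 3p arrays, a log2 fold change of -0.95 on 3p and -0.54 on 5p. Under normexp background correction the values were -0.45 and -0.34. The mock array was the highest of the 3 for both genes, and each gene rests on 1 probe.

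The other 7 subunits taken by name stayed between -0.26 and 0.41 with *miR-139-3p*. *PHF5A*, an SF3B subunit outside the naming rule, had -0.80. *SF3B1*, the large scaffold subunit that is mutated in several cancers, read 1.31, 1.92 and 1.36 on the mock, 5p and 3p arrays. Its log2 fold change was 0.06 on 3p and 0.55 on 5p, where it was called higher. Under normexp background correction its value on 5p was 0.36. *SF3B6*, which contacts the branch point adenosine, read 25.2, 28.3 and 33.4, which gave 0.41 with *miR-139-3p*. *SF3B3*, the subunit that packs against SF3B1 together with SF3B5, read 4.16, 4.54 and 4.70, for 0.17, and its probes ranged from -0.13 to 0.52 with *miR-139-3p*. *SF3A1*, *SF3A2*, *SF3A3* and *SF3B2* had log2 fold changes of -0.24, -0.09, -0.24 and -0.26.

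**Figure D4:**
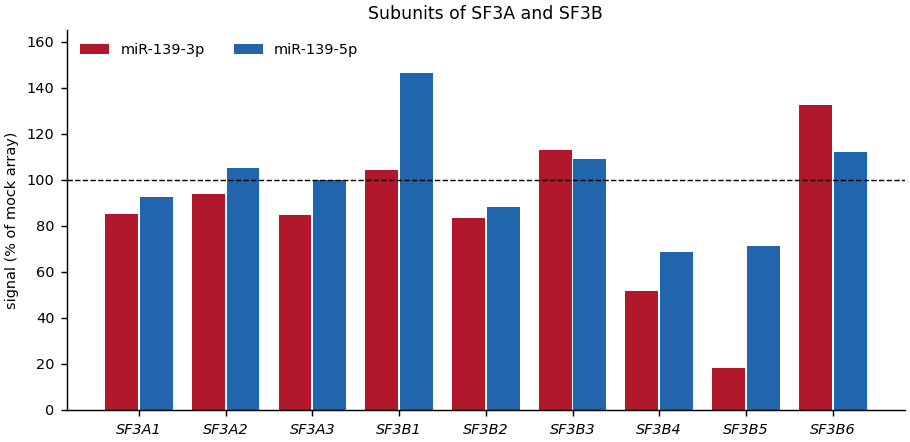
Normalised signal of the 9 SF3A and SF3B subunits taken by name, as a percentage of the mock array (y axis, from 0) with *miR-139-3p* and *miR-139-5p*, 1 array each. The dashed line marks mock. *SF3B5* stands at 18.2% with *miR-139-3p*, and *SF3B1* at 146% with *miR-139-5p*.

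*SF1*, which binds the branch point before U2 arrives, read 35.2, 34.9 and 25.1 on the mock, 5p and 3p arrays, a log2 fold change of -0.49 on 3p. *U2AF2*, which binds the pyrimidine tract, had -0.36 and -0.17 with *miR-139-3p* and *miR-139-5p*, and *U2AF1*, which reads the terminal AG, had 0.01 and 0.13. *RBM39*, a U2AF-like coactivator, read 16.7, 19.8 and 19.5, and its 3 probes were above mock on both arrays, for gene values of 0.22 and 0.25. None of these was past the threshold with either strand.

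Of the 3 CLK kinases with a value, 1 was lower with *miR-139-3p*, where 30.5% of all protein-coding genes were, and 1 was higher with *miR-139-5p*, where 10.6% were. *CLK4* read 0.511, 0.596 and 0.360 on the mock, 5p and 3p arrays, a log2 fold change of -0.51 on 3p that became -0.14 under normexp background correction. *CLK1*, whose own transcript is spliced under its control, read 0.594, 0.858 and 0.658, so it was at 0.15 with *miR-139-3p*. With *miR-139-5p* it was called higher, at 0.53 from probes at 0.47 and 0.59, and was at 0.27 under normexp background correction. *CLK2* had -0.11 and 0.04. The only spot of *CLK3* was marked by the scanner software as an outlier, of the spot or of its local background, on mock and 5p, so the gene has no value in the counts above. With marked spots kept, its normalised signals were 3.69, 3.41 and 9.25 on the mock, 5p and 3p arrays, a log2 fold change of 1.33 on 3p and -0.12 on 5p.

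*ELAVL1*, known as HuR, binds AU-rich and U-rich elements and protects the mRNAs that carry them, the opposite of what *HNRNPD* does for many of the same elements. It read 1.42 on mock, 1.42 on 5p and 0.994 on 3p. The log2 fold change was -0.51 on 3p, or 70.1% of mock, and 0.00 on 5p. The gene has 1 probe, and its value lies at the threshold.

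For context, 118 genes of the rest of the splicing machinery were taken in 7 lists, of which 113 had a value with *miR-139-3p*. Of these, 37 were lower and 9 higher, with a median of -0.25, where 30.5% of all protein-coding genes were lower and 23% higher. Of bright genes, 35.1% were lower and 10.4% higher, with a median of -0.28. The counts by list that follow stand against the same shares, and each list is small. In the U4/U6.U5 tri-snRNP, which brings the catalytic particles to the intron, 8 of 16 genes were lower and none was higher. Its median was -0.51, and its values ran from -1.37 for *USP39*, needed to assemble the particle, to 0.23 for *PRPF3*. Of the Sm and LSm proteins, the rings that hold the small nuclear RNAs, 7 of 15 were lower and 1 was higher, from *SNRPB* at -1.51 to *SNRPD3* at 0.56.

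Of the U1 and U2 proteins, 5 of 12 were lower and 1 was higher. *SNRNP70*, the U1 subunit that SR proteins contact, had -1.64 on 3p and -0.65 on 5p. *SNRPC*, also of U1, was highest at 0.95, with an SD of 1.59 between its probes. *PHF5A*, the small SF3B subunit that the naming rule does not reach, had -0.80 on 3p and -0.10 on 5p.

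Among the catalytic step factors, 4 of 21 were lower and 1 was higher, from *CDC40* at -0.90 to *SLU7* at 0.61, both second-step factors. Of the exon junction complex and decay factors, 4 of 15 were lower and 2 were higher, from *EIF4A3*, the helicase that anchors the complex, at -1.45 to *UPF3A* at 0.54. Of other regulators of splicing, 9 of 30 were lower and 3 were higher. *SRRM1*, a coactivator that joins SR proteins to snRNPs, was lowest at -1.76. *CELF2* was above background with *miR-139-3p* only, at least 5.39-fold higher than mock.

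Of 4 kinases of SR proteins outside the CLK family with a value, none was lower with *miR-139-3p* and *DYRK1A*, at 0.50, was just called higher, while *SRPK1*, the main cytoplasmic kinase, had -0.47. With *miR-139-5p*, 4 of the 113 genes in these lists were lower and 2 were higher, with a median of -0.02. The shares were 12.2% and 10.6% of all protein-coding genes, and 6.5% and 6.28% of bright ones.

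**Figure D5:**
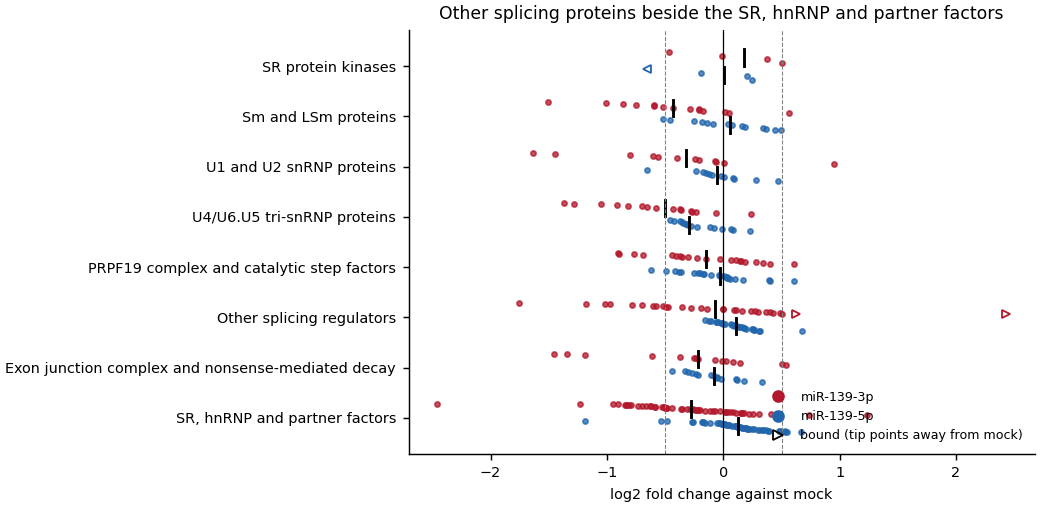
Log2 fold change against mock (x axis) of 7 further lists of splicing genes and of the 56 SR, hnRNP and partner factors (bottom row), with *miR-139-3p* in red and *miR-139-5p* in blue. Each point is a gene, open triangles are bounds for genes above background on 1 of the arrays compared, black ticks are medians, and dashed lines mark -0.5 and 0.5. The tri-snRNP list has the lowest median with *miR-139-3p*, at -0.51.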

How the data were processed

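Spot intensities were deposited by the authors for each array, processed by Agilent Feature Extraction 12.1.1.1 (background subtracted, nothing normalised between arrays), and a table of log2 values per probe, which matched quantile-normalised signals and served as an alternative. Here each processed signal was divided by the 75th percentile of its array over spots other than controls, and log2 was taken. Spots marked as outliers (614 on mock, 935 on *miR-139-5p*, 1526 on *miR-139-3p*) were left out. They included 5 spots of 4 probes for *CLK3*, *SRSF10*, *HNRNPA3* and *PTBP3*. A gene value averages those of its probes that stood well above background on each of the arrays compared. Where the only probes were above background on 1 array, a bound was taken against the lowest signal well above background. With those spots kept, all 92 probes of the splicing factors were well above background on every array. The share of spots well above background was 49.9%, 48.1% and 53.1% for mock, 5p and 3p, and no spot was saturated. The number of arrays limits the precision.

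Probes were named through their RefSeq accession and the annotation of GRCh38.p14 (31104 of 58201 matched). The array was designed on another build, so no gene coordinate is given. Any splicing factor could be named. Named in full were the 10 lowest and 10 highest with *miR-139-3p*, the 5 lowest and 5 highest with *miR-139-5p*, *ELAVL1*, genes whose probes lay past both thresholds, and the lowest and highest gene of each wider list; *PHF5A* was added after its value was seen. Genes and lists were chosen with earlier results of these data known. Python 3.11.15 was used, also for quantile normalization, with limma 3.58.1 for normexp, and the calculation was tested on simulated data. In total 13 alternatives were tried.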

Additional observations from a re-analysis of the deposited data

How the results depend on the processing

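With *miR-139-3p*, the count of lower genes depended on the scaling: 20 in the values above, 27 without scaling or with E1A spike-in scaling, 16 with normexp, 15 with the deposited log2 values, 14 with quantile normalization and 11 with a percentile taken over probes detected on each array. In the same order the shares of all protein-coding genes were 30.5%, then 41.0%, 40.4%, 21.3%, 32.4%, 31.5% and 23.1%, so with the deposited values and quantile normalization the share rose while the count fell, to 26.3% and 25% of the splicing factors. The median of measured genes moved by -0.21 without scaling, -0.20 with E1A spike-in scaling and 0.17 with probes detected on all arrays. The count of higher genes was 2, and became 4 with quantile normalization or probes detected on all arrays, 5 with the deposited values, 3 with outlier spots kept, where *CLK3* entered at 1.33, and 1 without genes that have near-identical copies (chosen after the data were seen). Of all protein-coding genes, 23% were higher in the values above. The share was 20.3% with quantile normalization, 29.0% with probes detected on all arrays, 19.2% with the deposited values and 23.2% with outlier spots kept. At a threshold of 1, 2 splicing factors were lower and 1 was higher, where 12.9% and 10.3% of all protein-coding genes were. Lower under each scaling, background and probe setting tried at 0.5 were *SF3B5*, *HNRNPD*, *HNRNPA0*, *HNRNPH3*, *HNRNPAB*, *HNRNPR*, *HNRNPU*, *SRSF4* and *TRA2B*, and higher *HNRNPH2* and *HNRNPCL1*.

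With *miR-139-5p*, the 2 lower genes became 1 with E1A spike-in scaling, normexp or a threshold of 1, and 3 without scaling or with probes detected on all arrays. In the same order the shares of all protein-coding genes were 10.1%, 4.61%, 2.36%, 15.6% and 13.2%. The 4 higher genes became 1 without scaling or with normexp, 0 at a threshold of 1, 6 with E1A spike-in scaling and 5 with the median over probes. In the same order 8.01%, 3.56%, 1.85%, 12.7% and 10.6% of all protein-coding genes were higher. *HNRNPF* was lower in each setting, and no splicing factor was higher in each. The number above mock with *miR-139-3p* was 17, and ranged from 7 without scaling or with E1A spike-in scaling to 22 with the percentile over detected probes. Of all protein-coding genes, 43.6% were above mock in the values above, and 33.8%, 34.2% and 52.5% in those settings. For the 5p array the number above mock ran from 33 without scaling to 45 with E1A spike-in scaling, where 41.1% and 54.7% of all protein-coding genes were. On that array the median of the CLK kinases was 0.073 with normexp. In the wider lists, the count higher with *miR-139-3p* was 2 without scaling or with E1A spike-in scaling, 16 with probes detected on all arrays and 1 with normexp. In the same order 16.6%, 16.9%, 29.0% and 8.82% of all protein-coding genes were higher. With *miR-139-5p* the count higher was 4 with E1A spike-in scaling and 0 with normexp, and the count lower was 8 without scaling, beside the shares given above. The cause of these changes was not tested. No paired analysis was possible because each condition had 1 array and no test was made, and for the same reason no array could be left out and no slide effect fitted.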
